A study of Mus musculus with 2 samples.

Results

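The cytosolic ribosomal protein genes of mouse blood cells are described here. Members were all genes of the deposited matrices whose symbol is Rpl or Rps followed by a number and at most 1 letter, or is Rplp0, Rplp1, Rplp2 or Rpsa. The rule took 80 of 31053 genes, 49 of the large subunit (Rpl and Rplp) and 31 of the small subunit (Rps and Rpsa). It used names only and no measured value. Fau and Rps3a1, which also encode ribosomal proteins, fall outside it. The libraries were made from blood of wild-type and db/db mice, which lack a working long leptin receptor and become obese and diabetic. Each genotype was represented by 1 droplet library of peripheral immune cells pooled from 3 male mice of strain C57BLKs/J aged 21 weeks, with 200 µl of blood per group and lysis of red cells in both. Nothing in the files maps a cell to a mouse, so values compare 2 libraries, no test across animals was possible and no p-value is given. All intervals are exact 95% intervals unless said otherwise, and they cover counting error only.

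Each ribosome joins a small subunit, which reads the message, to a large subunit, which makes the peptide bond. Nearly every ribosomal protein is present once per ribosome, so the genes are usually read as a unit. Their messages are short and abundant, and most start with a run of pyrimidines, the 5′ terminal oligopyrimidine tract through which mTOR signalling controls their translation. Lymphocytes are known to carry much ribosomal protein mRNA, and mature neutrophils, red cells and platelets carry little.

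Transcripts were counted by unique molecular identifiers (UMIs), each standing for a single captured molecule. There were 50540198 UMIs in 16700 wild-type barcodes and 70039773 UMIs in 19912 db/db barcodes. Barcodes with 200 to 6000 genes and under 10% of UMIs from mitochondrially encoded (mt-) genes were kept, which left 5727 wild-type and 6109 db/db cells. Ribosomal protein genes took 15.4% of the kept wild-type UMIs and 15.5% of the kept db/db UMIs. Haemoglobin took 36.7% and 40.5%, mt- genes 3.37% and 2.37%, and Gm42418, a gene model that overlaps ribosomal RNA sequence, 2.73% and 0.781%. The mt- limit removed 1849 wild-type but 374 db/db barcodes. The libraries shared 91 barcodes, 11 of them among the kept cells. Cells were clustered without the ribosomal protein genes, and clusters were named from marker genes. The 7 classes with at least 50 cells in each library were T cell-like, B cell-like, NK cell-like, monocyte-like, neutrophil-like, erythroid-like and platelet-like, written by the cell name from here on. No doublets were removed by a caller. Cells with at least 2 core markers of another class are counted below for erythroid cells, neutrophils and platelets. They were also 64 of 712 wild-type and 88 of 529 db/db T cells, and 20 of 2508 and 61 of 2235 B cells. In NK cells they were 21 of 104 and 8 of 55, and in monocytes 32 of 126 and 75 of 368.

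Start sites of 8 members that carry the results are printed first, since these genes are known for their start. Each line gives 15 bases before and 15 bases from the RefSeq transcription start (build GRCm38.p6), 5′ to 3′ on the gene's strand. Capitals mark a run of at least 5 pyrimidines (C or T) that begins with C within 5 bases of the start, whatever base precedes it, where there is one.
Rps9 (chr7:3704026-3704055, plus strand): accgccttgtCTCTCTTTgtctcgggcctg
Rps18 (chr17:33955651-33955680, minus strand): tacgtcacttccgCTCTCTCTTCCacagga
Rps27 (chr3:90213634-90213663, minus strand): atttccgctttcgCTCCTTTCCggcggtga
Rps28 (chr17:33824548-33824577, minus strand): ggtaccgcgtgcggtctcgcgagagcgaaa
Rpl38 (chr11:114668565-114668594, plus strand): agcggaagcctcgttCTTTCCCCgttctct
Rpl41 (chr10:128549154-128549183, minus strand): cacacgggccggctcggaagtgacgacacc
Rplp0 (chr5:115559452-115559481, plus strand): gtcttcgggtttcgaggaccgcctggttct
Rpl12 (chr2:32961697-32961726, plus strand): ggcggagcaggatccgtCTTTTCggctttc

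Rps9, Rps18, Rps27, Rpl38 and Rpl12 held such a run near the annotated start, and Rps28, Rpl41 and Rplp0 did not. Of the 60 members found in the RefSeq promoter table, 28 (46.7%) held such a run, against 5718 of 27025 genes in the table (21.16%). When the base before the C had to be A or G, the numbers were 17 members (28.3%) and 3926 genes (14.53%). In the 300 bases from 250 before to 50 after the start, searched on both strands, CCGGAAG (the core bound by ETS and GABP factors) was found for 25 of the 60 members (41.7%) and 9.93% of all genes. AAGATGG, a core of the YY1 motif, was found for 9 (15.0%) and 7.28%, and TATAAA, bound by the TATA-binding protein, for 6 (10.0%) and 15.67%. These matches describe letters in a window, and a missing match says only that the letters are not there.

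The share of a cell's UMIs that came from ribosomal protein genes set the classes apart far more than the genotypes did. T cells gave 29.3% in wild-type and 28.3% in db/db, B cells 23.6% and 28.3%, and NK cells 14.6% and 21.5%. Monocytes gave 17.2% and 18.0%, neutrophils 4.87% and 3.54%, erythroid cells 3.55% and 5.32%, and platelets 2.29% and 1.15%. Lymphocytes and monocytes thus lay above the other three classes in both libraries. The widest exact interval of these shares, that of the db/db NK cells, ran from 21.32% to 21.70%. Between libraries the ratio of db/db over wild-type was 1.47 (1.455 to 1.494) for NK cells, 1.496 (1.489 to 1.504) for erythroid cells and 1.203 (1.2 to 1.205) for B cells. It was 1.05 (1.039 to 1.054) for monocytes, 0.967 (0.9633 to 0.9699) for T cells, 0.726 (0.7118 to 0.7396) for neutrophils and 0.503 (0.4914 to 0.5153) for platelets. The 7 comparisons rest on the same 2 libraries and are not independent of each other.

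**Figure D1:**
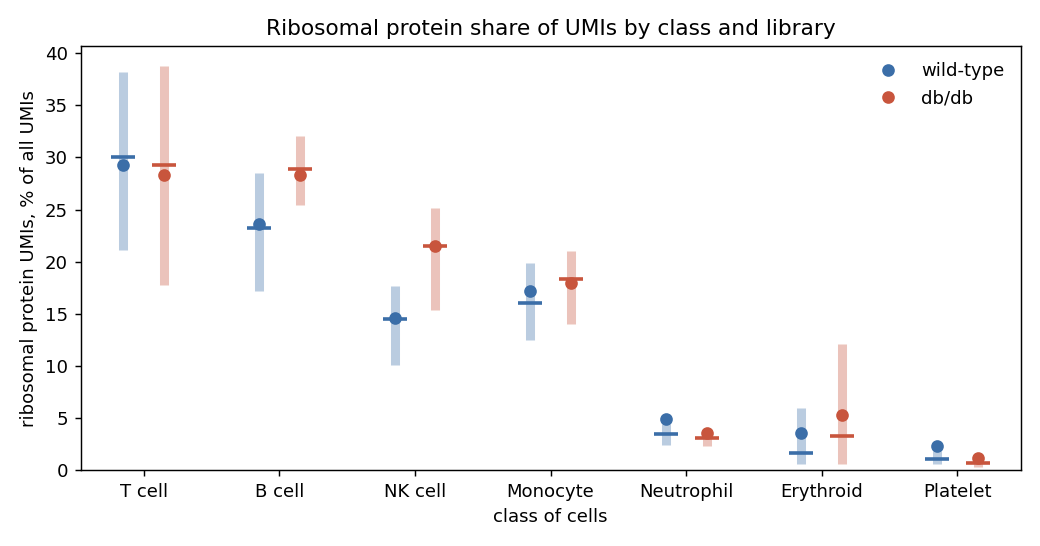
Ribosomal protein UMIs as a percentage of all UMIs (y axis) for each class (x axis) in the wild-type (blue) and db/db (red) library. Dots give the share of the summed UMIs, dashes the median over cells and bars the range between the quartiles over cells. The B cell medians were 23.2% and 28.9%, and neutrophils, erythroid cells and platelets lay under 6% in both libraries.

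B cells were the class with the most cells, with 6068263 wild-type UMIs from 2508 cells and 5397638 db/db UMIs from 2235 cells. Over cells, the quartiles of the share were 17.2% and 28.6% in wild-type and 25.4% and 32.1% in db/db, so the wild-type cells were spread further towards low shares. Cluster 1 was the largest B cell cluster in wild-type (1188 wild-type, 226 db/db), and cluster 0 held most of the db/db B cells (485 and 1189). Within cluster 1 the ribosomal protein share was 22.7% in wild-type and 26.4% in db/db, and within cluster 0 it was 27.7% and 28.6%. Cluster 2 gave 28.5% and 29.2%. Cluster 7 gave 17.5% and 20.9%. All 4 clusters were higher in db/db, by 1.03 to 1.19 times. With the clusters weighted the same way in both libraries, the B cell ratio was 1.08, down from 1.203.

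Other properties of the wild-type B cells moved with the ribosomal protein share. Gm42418 took 3.06% of their UMIs against 0.622% in db/db, mt- genes took 5.10% against 4.13%, and the median cell had 2274 against 2194 UMIs. Haemoglobin differed little, at 5.42% and 5.39%. Among B cells with 500 to 1500 UMIs the ribosomal protein share was 16.5% in wild-type and 26.6% in db/db, a ratio of 1.62, and among those with at least 4000 UMIs it was 22.7% and 25.2%, a ratio of 1.11. Among B cells with under 4% mt- UMIs the ratio was 1.19, from 4% to 6% it was 1.15, and from 6% to 10% it was 1.29. The ratio thus stayed above 1 in every range of depth and of mt- UMIs and was largest in the shallowest cells. The part of Gm42418 in the result was not tested.

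**Figure D2:**
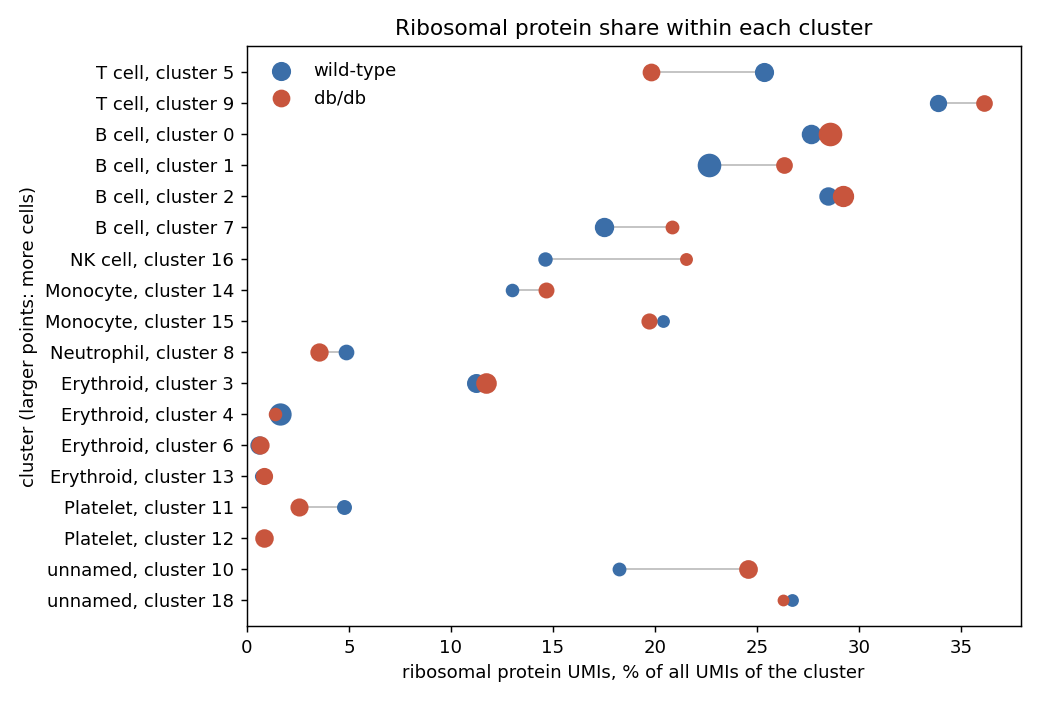
Ribosomal protein share of UMIs (x axis, %) within each cluster (y axis) that had at least 30 cells in each library, wild-type in blue and db/db in red, with larger points for more cells. B cell clusters 0 and 2 differed by about 1 percentage point or less, and NK cell cluster 16 and the unnamed cluster 10 by more than 6.

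T cells split into cluster 9, where the share was 33.9% in wild-type and 36.1% in db/db, and cluster 5, where it was 25.4% and 19.8%. The 2 clusters thus moved in opposite directions, and haemoglobin moved as well in cluster 5, from 18.1% to 31.3% of UMIs. With haemoglobin and mt- UMIs left out of the total, the share of all T cells was 36.2% in wild-type and 37.0% in db/db, which turns the direction. On the same basis cluster 9 gave 40.0% and 41.5% and cluster 5 gave 32.7% and 30.5%, so the clusters still moved in opposite directions. When T cells were clustered again alone, the highest share of any group, 42.8% and 42.6%, was found in a CD8 T cell-like group of 66 and 60 cells. The other CD8 T cell-like groups gave 35.9% and 37.7%, and 30.99% and 38.7%. The only group named CD4 T cell-like, of 59 and 38 cells led by S100a4 and S100a6, gave 25.5% and 24.1%. That was lower than each CD8 group in both libraries. The largest group, of 239 and 126 cells, had Cd4 among its leading genes but too few markers for a name. It gave 33.9% and 31.4%, above the last of these CD8 groups in wild-type, so the low share does not hold for all Cd4-bearing groups. The remaining groups of the T cell class were led by haemoglobin, B cell or platelet genes.

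NK cells formed 1 cluster of 104 wild-type and 55 db/db cells, the fewest of any class. The quartiles over cells were 10.1% and 17.7% in wild-type and 15.3% and 25.2% in db/db, so the ranges overlapped. Haemoglobin was lower in the db/db NK cells, 7.63% against 15.6% of UMIs, and without haemoglobin and mt- UMIs the shares were 17.9% and 24.1%, a ratio of 1.34. Monocytes were split by cluster. Cluster 14 gave 13% and 14.7%, and cluster 15 gave 20.4% and 19.7%. Among monocytes clustered alone, the larger nonclassical monocyte-like group of 40 and 69 cells gave 15.1% and 18.4%. The classical monocyte-like group gave 20.6% in 82 db/db cells and 13.5% in only 5 wild-type cells.

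Erythroid cells of the 2 libraries were spread differently over the clusters of the class. Cluster 4 held 911 of the 1757 wild-type cells but 72 of the 1312 db/db cells, and cluster 3 held 428 and 630. The ribosomal protein share was 11.2% and 11.7% in cluster 3, 1.62% and 1.40% in cluster 4, 0.589% and 0.647% in cluster 6, and 0.710% and 0.821% in cluster 13. Without haemoglobin and mt- UMIs, the share was 26.38% and 29.65% in cluster 3 and 8.35% and 10.02% in cluster 4. On that basis cluster 6 gave 6.115% and 7.186%, and cluster 13 gave 5.861% and 8.621%. Each cluster was thus higher in db/db on that basis, and cluster 4 turned direction. Cluster 3 stood apart from the others, and most of its cells also carried core markers of another class, 88.8% in wild-type and 93.5% in db/db. Erythroid cells without core markers of another class, 975 and 580 cells, gave 1.05% and 1.04%, a ratio of 0.993 in place of 1.496. Those with such markers, 782 and 732 cells, gave 7.11% and 9.31%. With a limit of 5% on mt- UMIs the ratio of all erythroid cells was 0.914.

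Neutrophils and platelets had the lowest shares outside the red cells. Both held more haemoglobin in db/db, 27.0% against 16.98% of UMIs in neutrophils and 76.0% against 59.9% in platelets. Without haemoglobin and mt- UMIs the ribosomal protein share was 5.94% in wild-type and 4.89% in db/db neutrophils, and 5.94% and 4.93% in platelets. Barcodes with fewer than 200 genes, in which haemoglobin took 92.2% and 94.1% of UMIs, gave 6.06% and 6.40% on the same basis. The totals of neutrophils and platelets therefore lay at or under the level in barcodes that mainly held haemoglobin RNA. Neutrophils with core markers of another class (53 and 85 cells) gave 7.68% and 5.61%, and those without gave 3.06% and 2.62%. Platelets with such markers (29 and 27 cells) gave 9.03% and 13.3%, and those without gave 0.899% and 0.632%. The platelet ratio turned to 1.21 with scaling by the trimmed mean of M values (TMM), so its direction depended on the scale. When barcodes needed at least 500 genes, the class named platelet gave 1.48. The median genes per barcode in platelet clusters 11 and 12 were 326.5 and 255 in wild-type and 304 and 248 in db/db. The 500-gene minimum thus dropped most platelet barcodes, and 1.48 does not describe the same cells.

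Single members spanned a wide range of levels. Rps24, Rps27, Rps29, Rpl13, Rps20, Rpl23, Rps16, Rps14 and Rps19 were among the 10 with the most UMIs over both libraries. Rps24 and Rps19, which are mutated in Diamond-Blackfan anaemia, had 194378 and 107585 UMIs. At the other end Rpl13a had 7828 UMIs and Rps27l 2510. Rpl3l, the striated muscle copy of Rpl3, had 54 UMIs, Rpl39l 4 and Rpl10l 0, which allows up to 3 UMIs. Rpl39l and Rpl10l are known as the testis copies of Rpl39 and Rpl10, which were abundant in these cells. One UMI is 1 captured 3′ end, so these levels were not divided by transcript length.

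Ratios of single members were taken for genes whose UMIs in the 2 libraries summed to 200 or more, as log2 of CPM plus 10 in db/db over wild-type. CPM scales the UMIs of each class in a library to the same total. A gene was counted as higher or lower when its CPM differed by more than 1.2-fold. In B cells 77 of the 80 members could be counted, and 48 were higher in db/db, where 12.5% of all 5817 genes counted were higher. The 2 members that were lower, Rps2 and Rps18, compare with 20.1% of all genes. Rpl10l, Rpl39l and Rpl3l were too low to be counted. The median log2 ratio of the members was 0.31, against -0.03 for all genes. In NK cells 66 of 75 members were higher (43.4% of 272 genes, of which the members are a large part) and 0 lower (13.6%), with medians of 0.57 and 0.19. In erythroid cells 68 of 77 were higher (34.3% of 1961 genes) and 0 lower (28.7%), with medians of 0.61 and 0.03. Without the erythroid cells that carried core markers of another class, 11 were higher and 16 lower, and the shares of all genes in that setting are not given.

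In T cells 0 of 77 members were higher (8.81% of 2532 genes) and 11 were lower (21.1%), with medians of 0.02 for the members and -0.07 for all genes. The lower members in T cells were Rpl37, Rpl37a, Rpl38, Rpl39, Rpl41, Rps2, Rps18, Rps21, Rps27, Rps28 and Rps29. In monocytes 5 of 77 were higher (19.6% of 1733 genes) and 8 lower (19.4%), with medians of 0.12 and -0.01. Both shares of members lay under the background. Rpl10, Rplp0, Rpl13, Rpl15 and Rpl29 were the higher ones, and Rpl37, Rpl37a, Rpl38, Rpl39, Rps18, Rps21, Rps27 and Rps28 the lower ones. In neutrophils 0 of 66 were higher (11.7% of 648 genes) and 58 lower (36.0%), with medians of -0.43 and -0.13. In platelets 0 of 64 were higher (6.98% of 487 genes) and 63 lower (73.3%), with medians of -0.98 and -0.59. For single members, TMM scaling raised all log2 ratios by 0.32 in neutrophils, 1.26 in platelets and 0.11 in monocytes and lowered them by 0.13 in NK cells. With that scaling the counts of higher and lower members were 1 and 22 in neutrophils, 30 and 3 in platelets, 29 and 2 in monocytes and 62 and 0 in NK cells. The shift is the same for all genes, so the share of all genes past the fold moves too. That share is not given here, and these counts cannot be read against it. The direction in platelets therefore depended on the scale. In monocytes the balance of the counts did, while the median of the members, 0.12 before the rise, was above 0 on both scales. With haemoglobin and mt- UMIs left out of the totals, T cells had 4 higher and 11 lower members, and monocytes 16 and 8, again without the share of all genes.

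**Figure D3:**
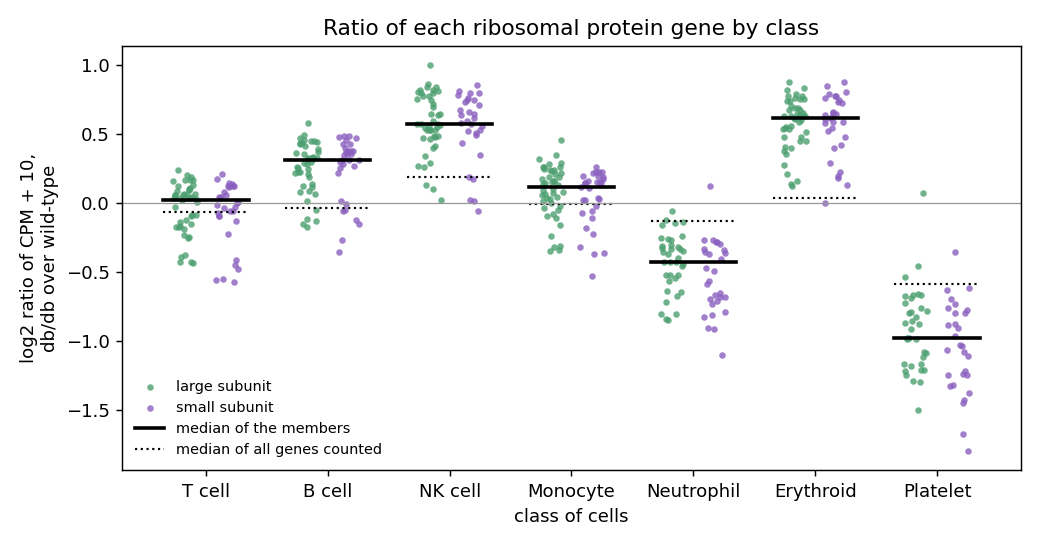
Log2 ratio of CPM + 10, db/db over wild-type (y axis), for each ribosomal protein gene counted in each class (x axis), with large subunit genes in green and small subunit genes in purple. Solid lines give the median of the members and dotted lines that of all genes counted. In B cells the solid line lies at 0.31 and the dotted one at -0.03, and in neutrophils and platelets the solid line lies under the dotted one.

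Among small subunit genes, Rps18, a protein of the head of the small subunit, was at 2695 CPM in wild-type and 2104 CPM in db/db B cells, a ratio of 0.781 (0.7621 to 0.7996). It was the lowest member in B cells, neutrophils, erythroid cells and platelets. In T cells it was at 3749 and 2553 CPM (ratio 0.681), in neutrophils at 311 and 140 CPM (ratio 0.450, 0.3407 to 0.5935), and in platelets at 239 and 61.7 CPM (ratio 0.258). Rps2, at the entry of the mRNA channel, was at 2485 and 2056 CPM in B cells (ratio 0.827, 0.8072 to 0.8479). In T cells it had the lowest ratio, 0.672 (0.6481 to 0.6963), at 3454 and 2321 CPM. Rps28, which lies near the mRNA exit, was at 3037 and 2056 CPM in T cells (ratio 0.677) and at 1276 and 1224 CPM in NK cells (ratio 0.960, 0.8119 to 1.132). That interval includes 1, although most NK cell members were higher in db/db. Rps27, a zinc finger protein, was at 4412 and 3060 CPM in monocytes (ratio 0.693) and at 8127 and 5938 CPM in T cells. Rps10 stood at the other end in B cells, at 3761 and 5281 CPM, a ratio of 1.40 (1.380 to 1.429). Rps4x, the X-linked copy of S4, was at 1871 and 3386 CPM in NK cells (ratio 1.81, 1.618 to 2.025).

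Among large subunit genes, Rpl8, which lies near the peptidyl transferase centre, had the highest ratio in B cells, 1.498 (1.469 to 1.526), at 3074 CPM in wild-type and 4603 CPM in db/db. It was at 3602 and 4242 CPM in T cells, where it also had the highest ratio, 1.18. Rpl12, a protein at the base of the ribosomal stalk, had the highest ratio in NK cells, at 1701 and 3415 CPM, a ratio of 2.01 (1.790 to 2.251). Rpl29 was at 831 and 1518 CPM in NK cells (ratio 1.83) and at 966 and 1208 CPM in monocytes (ratio 1.25). Rpl10, one of the last proteins to join the large subunit, had the highest ratio in monocytes, 1.38 (1.302 to 1.457), at 2595 and 3573 CPM. In neutrophils it was at 400 and 384 CPM, a ratio whose interval includes 1 (0.7846 to 1.182). Rpl41, the shortest ribosomal protein, was at 3254 and 2887 CPM in B cells (ratio 0.887) and at 2538 and 2776 CPM in NK cells.

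Rplp0, which anchors the acidic stalk proteins Rplp1 and Rplp2, was at 2332 CPM in wild-type and 3293 CPM in db/db B cells, a ratio of 1.41 (1.382 to 1.444). It was at 4209 and 4791 CPM in T cells, 1587 and 2857 CPM in NK cells, and 2518 and 3206 CPM in monocytes. In neutrophils it was at 456 and 365 CPM, in erythroid cells at 558 and 882 CPM, and in platelets at 434 and 456 CPM. Rplp0 was the only member counted in platelets that was not lower in db/db by more than 1.2-fold (ratio 1.05, 0.8965 to 1.236). Rplp0, Rplp1, Rplp2 and Rpsa together gave 12940 and 15970 CPM in B cells and 21200 and 20610 CPM in T cells.

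The make-up of the ribosomal protein UMIs differed between classes in a way that both libraries shared. Each member was taken as a percentage of the UMIs of all members. This does not depend on genes outside the set, but a rise of any member lowers the percentages of the rest. The percentage was set against the mean of the other 6 classes on the log2 scale. Neutrophils stood apart through Rps9, a small subunit protein at the mRNA entry. It was 5.69% of their member UMIs in wild-type (1026 UMIs) and 8.53% in db/db (2159 UMIs), which is 1.88 and 2.30 above the other classes on the log2 scale. In the other classes it ran from 1.22% to 2.15% in wild-type and from 1.39% to 2.45% in db/db, so no class overlapped with neutrophils. Rps9 was also the neutrophil member with the highest CPM, 2771 in wild-type and 3018 in db/db, while 58 of the 66 members counted there were lower in db/db. In neutrophils without core markers of another class it was 8.69% and 11.7%. Its level in barcodes with fewer than 200 genes was 2.13% and 2.51%. Rpl37 was likewise high in neutrophils, 2.57% and 2.74% against 1.15% and 0.803% in those barcodes.

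**Figure D4:**
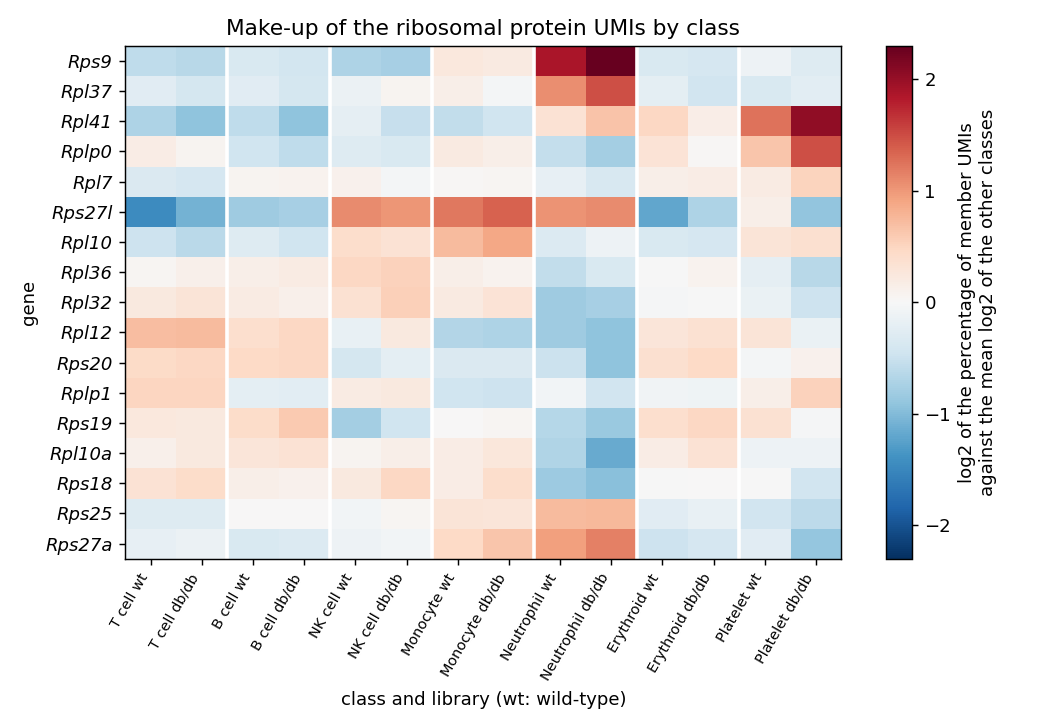
Log2 of each gene's percentage of the ribosomal protein UMIs against the mean of the other classes (colour), for 17 members chosen from the rule for named genes after their values were seen, without the sparse Rpl3l (y axis) in each class and library (x axis). Rps9 in neutrophils (1.88 and 2.30) and Rpl41 in platelets (1.25 and 2.04) are the darkest cells of their class among these genes in both libraries.

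Platelets stood apart through Rpl41 and Rplp0. Rpl41 was 4.13% of their member UMIs in wild-type (407 UMIs) and 5.95% in db/db (1353 UMIs), and Rplp0 was 1.90% and 3.96%. Both genes were higher still in barcodes with fewer than 200 genes, where Rpl41 took 12.04% and 15.01% and Rplp0 4.74% and 6.79% of member UMIs. Platelets held 59.9% and 76.0% haemoglobin, and the part of red cell RNA in these percentages was not tested. When each cell took its class from its own core markers, the platelet values were 2.42% and 2.10% for Rpl41 and 1.31% and 1.90% for Rplp0. Rpl41 was 2.60% and 1.94% of member UMIs in erythroid cells and 2.39% and 2.62% in neutrophils, against 1.29% and 1.02% in T cells.

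Rps27l, a paralogue of Rps27 known as a target of p53, marked another division. It was 0.137% and 0.121% of member UMIs in monocytes, 0.126% and 0.0989% in NK cells, and 0.122% and 0.103% in neutrophils. In T cells it was 0.0274% and 0.0277%, in B cells 0.0401% and 0.0338%, and in erythroid cells 0.0318% and 0.0349%. In share of member UMIs, monocytes, NK cells and neutrophils lay above T cells, B cells and erythroid cells in both libraries. On the scale of CPM, Rps27l reached 235 and 217 in monocytes and 183 and 213 in NK cells, against 94.6 and 95.8 in B cells. Neutrophils had only 22 and 26 Rps27l UMIs among 370256 and 715420 UMIs of the class. On the scale of CPM they thus lay below B cells in both libraries. Rpl3l was found mainly in myeloid cells, with 16 and 19 UMIs in monocytes and 7 and 6 in neutrophils, and with 1 UMI in each library in B cells. In monocytes that is 27.4 CPM (15.68 to 44.56) in wild-type and 10.4 CPM (6.258 to 16.23) in db/db. Rps27 and Rpl3, the paralogues of these genes, had 164569 and 43307 UMIs over both libraries, though Rpl3 had only 61 and 114 in platelets.

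Other members differed in share between the lymphocyte and the myeloid classes, though not alike in T, B and NK cells. Rpl12 was 1.97% and 2.13% of member UMIs in T cells and 1.63% and 1.83% in B cells, against 0.859% and 0.911% in monocytes and 0.793% and 0.802% in neutrophils. It was 1.17% and 1.59% in NK cells and 1.51% and 1.70% in erythroid cells. Rplp1 was 2.50% and 2.42% in T cells against 1.41% and 1.37% in monocytes, 1.62% and 1.57% in B cells and 2.08% and 2.07% in NK cells. Rps20 was above the other classes in T cells, 2.12% and 2.32%, and in B cells, 2.14% and 2.31%, and was 2.03% and 2.29% in erythroid cells but 1.28% and 1.53% in NK cells. Rps19 was high in B cells, 1.88% and 2.01%, and low in NK cells, 0.922% and 1.07%. Monocytes were rich in Rpl10, 1.51% and 1.99%, which lay 0.72 and 0.89 above the other classes on the log2 scale. NK cells were high in Rpl36, 1.14% and 0.978%, and Rpl32, 1.74% and 2.09%.

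The db/db library also differed from wild-type in the make-up of the ribosomal protein UMIs within each class, and the members that lost share were mostly the shortest. Rps18 lost 0.62 on the log2 scale in B cells, from 1.14% to 0.742% of member UMIs, and 0.51 in T cells, 0.37 in NK cells, 0.39 in monocytes, 0.69 in neutrophils, 0.58 in erythroid cells and 0.96 in platelets. In neutrophils without core markers of another class Rps18 changed by 0.29 instead, but there it fell below the minimum of UMIs for counting a gene. All neutrophils held only 115 Rps18 UMIs in wild-type and 100 in db/db, and this subset held fewer cells. The sign in that subset is therefore uncertain. Rps28 changed by -0.42 in B cells, -0.51 in T cells and -0.62 in NK cells. Rpl38, which is known for its part in the translation of Hox mRNAs in embryos, changed by -0.42, -0.38 and -0.46 in the same classes. Rps27 changed by -0.32 in B cells, -0.40 in T cells, -0.54 in NK cells and -0.59 in monocytes. Rplp0 gained 0.23 in B cells, 0.24 in T cells, 0.29 in NK cells, 0.28 in monocytes, 0.14 in neutrophils, 0.08 in erythroid cells and 1.06 in platelets. Rpl8 gained 0.32 in B cells and 0.29 in T cells.

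Sorted by coding length, the 20 shortest members counted in B cells (75 to 369 bases) had a median change of share of -0.26, with 19 of 20 below 0, and the 20 longest (612 to 1257 bases) had a median of 0.14, with 4 below 0. The same medians were -0.19 and 0.13 in T cells, -0.24 and 0.19 in NK cells, -0.18 and 0.15 in monocytes and -0.21 and 0.14 in erythroid cells. They were -0.21 and 0.08 in neutrophils and -0.25 and 0.12 in platelets. Spearman's correlation between coding length and change of share was 0.66 over 77 members in B cells, 0.66 over 77 in T cells, 0.62 over 75 in NK cells, 0.70 over 77 in monocytes, 0.38 over 66 in neutrophils, 0.64 over 77 in erythroid cells and 0.40 over 64 in platelets. These values describe genes of the same 2 libraries and are not independent of each other. Rps18 (456 coding bases) and Rps2 (879 coding bases) had the lowest values in B cells without being among the 20 shortest, at -0.62 and -0.54. The Rps18 gene is at chr17:33951999-33956001 and the Rps28 gene at chr17:33819027-33824562 (GRCm38).

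**Figure D5:**
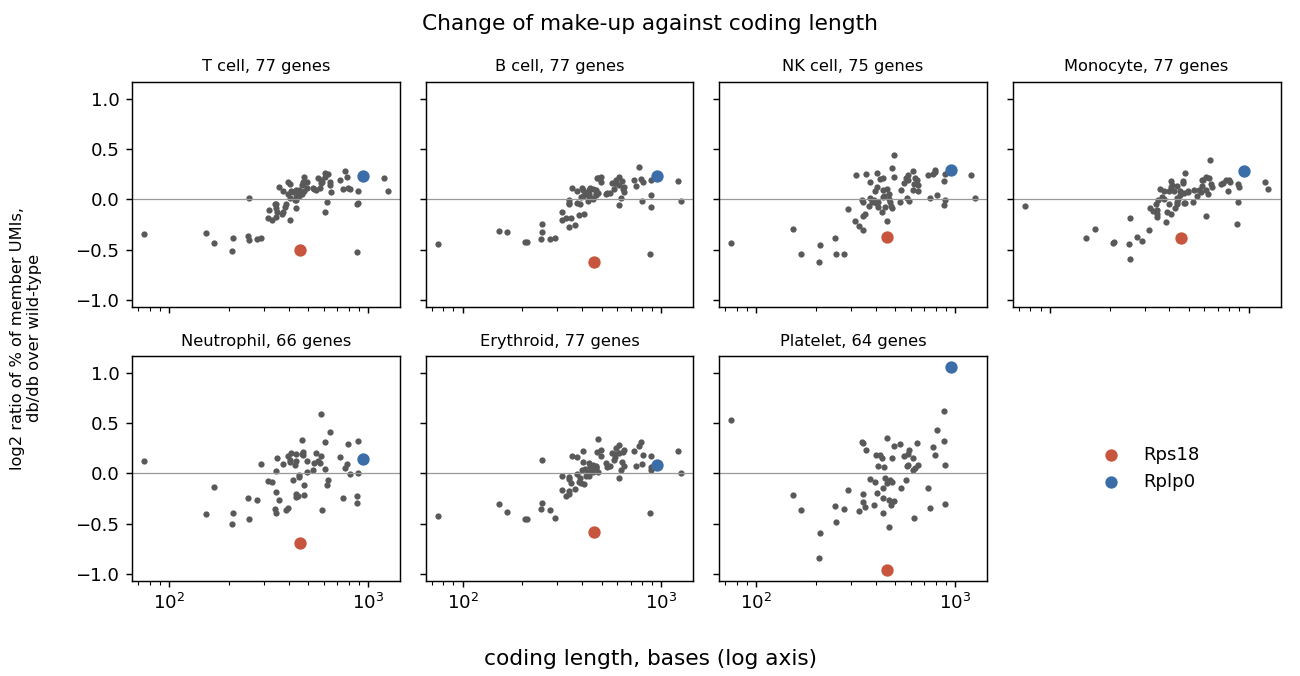
Log2 ratio of each member's percentage of the ribosomal protein UMIs, db/db over wild-type (y axis), against its coding length in bases (x axis, log scale), in 1 panel per class. Rps18 (red) lies at -0.62 in B cells and -0.96 in platelets, Rplp0 (blue) at 0.23 and 1.06, and most of the shortest members lie below 0.

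The change of make-up was not limited to one kind of cell. In the 4 B cell clusters taken singly Rps18 changed by -0.61, -0.65, -0.68 and -0.60 and the Spearman correlation with coding length was 0.66, 0.64, 0.65 and 0.69, so it was as large within clusters as in the class. In the barcodes with fewer than 200 genes, which belong to no class, Rps18 changed by -1.14, Rps27 by -1.14, Rps28 by -0.84 and Rplp0 by 0.52, and the Spearman correlation was 0.49 over 75 members. In the barcodes removed for their mt- UMIs Rps18 changed by -0.68 and the Spearman correlation was 0.37 over 77 members. Over the coding lengths that members span, the gap between short and long genes was smaller among other genes in T cells and monocytes, absent in B cells and turned in erythroid cells, as medians of the log2 ratio of CPM. In B cells the 323 other genes of up to 369 coding bases and the 1731 of 612 to 1257 bases both had a median of 0.03. In T cells the medians were -0.08 and -0.03, in monocytes -0.02 and 0.04, and in erythroid cells 0.30 and 0.15. Other genes of 370 to 611 bases lay above both groups, at -0.0008 in T cells, 0.10 in B cells, 0.06 in monocytes and 0.32 in erythroid cells. Over other genes of all lengths, with those over 1257 bases, Spearman's correlation of length and log2 ratio was negative. It was -0.166 in T cells, -0.374 in B cells, -0.14 in monocytes and -0.591 in erythroid cells.

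Many members have near-identical copies, and a copy can take reads from the gene. Rps18 shares most of the last 300 bases of its transcript with Gm10260 and Gm11361, which were counted in the matrices. These copies had 707 UMIs in wild-type and 2141 in db/db B cells, where Rps18 itself had 16355 and 11357. Counted together with its copies, the log2 ratio of Rps18 in B cells was -0.17 in place of -0.36, and in T cells -0.40 in place of -0.55. For Rps27, whose copy Rps27rt had 2859 and 2098 UMIs in B cells, the ratio was -0.07 in place of -0.06. Values of Rps18 are uncertain to this extent. The Spearman correlation between the change of share and the share of the transcript's end found in other genes was between -0.08 and 0.07 in every class.

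Large and small subunit genes moved together. The ratio of large over small subunit UMIs was 1.09 in B cells of both libraries, 1.07 and 1.11 in T cells, 1.18 and 1.21 in NK cells, 1.12 and 1.17 in monocytes, 1.02 and 1.01 in neutrophils, 1.14 in erythroid cells of both and 1.24 and 1.38 in platelets. The change from wild-type to db/db was between 0.988 and 1.04 times in all classes but platelets, where it was 1.11 (1.059 to 1.165). Fau, which lies outside the rule and encodes a ribosomal protein fused to a ubiquitin-like protein, was also higher in db/db B cells, at 6185 and 7485 CPM.

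Elongation factors, and a list of genes known for a pyrimidine start, also had medians above 0 in B cells. The start sites of these genes were not examined singly. The counts that follow compare with 12.5% of all 5817 genes higher and 20.1% lower in B cells. Of 7 elongation factor genes counted, 5 were higher in db/db and 0 lower, with a median log2 ratio of 0.30. The highest ratios were those of Eef1d, at 218 CPM in wild-type and 309 CPM in db/db (ratio 1.41), and Eef1b2, at 986 and 1326 CPM (ratio 1.34). Both encode exchange factors of Eef1a1, which brings aminoacyl-tRNA to the ribosome. The lowest was that of Eef1g, at 455 and 491 CPM (ratio 1.08). Of 16 genes listed as known for a pyrimidine start, 9 were higher and 0 lower, with a median of 0.27. Tpt1 was at 6681 and 9405 CPM (ratio 1.41) and Rack1, which sits on the small subunit, at 2140 and 2865 CPM (ratio 1.34). Impdh2, an enzyme of guanine nucleotide synthesis, had the lowest ratio, 0.942, at 56.9 and 53.5 CPM. The other lists stayed nearer to the median of all genes, which was -0.03. Of 26 initiation factor genes 4 were higher and 2 lower (median -0.01), of 25 ribosome biogenesis genes 3 and 5 (median 0.04), and of 11 genes of RNA polymerase I and its factors 3 and 1 (median -0.09). Of 12 regulators of the ribosome 1 was higher and 1 lower, and of 10 genes of ribosome rescue 1 and 0. Of 66 mitochondrial ribosomal protein genes 12 were higher and 4 lower, with a median of 0.07. The 13 mt- genes had 8 lower and 0 higher, with a median of -0.35.

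The elongation factors and the listed pyrimidine-start genes had medians of 0.05 and 0.07 in T cells, 0.58 and 0.51 in NK cells, 0.16 and 0.20 in monocytes and 0.57 and 0.53 in erythroid cells. The medians of the ribosomal protein genes were 0.02, 0.57, 0.12 and 0.61 in the same classes. In neutrophils 3 elongation factor genes had a median of -0.44 and 4 listed pyrimidine-start genes one of -0.08. The class comparisons share the 2 libraries, so these values are set side by side and not counted as repeats.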

How the data were processed

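Peripheral blood cells of 1 wild-type and 1 db/db library were analysed. The deposited matrices hold raw UMI counts per gene and barcode, made by the authors with Cell Ranger 3.0.2 on mm10 per the submitters' processing notes. The gene annotation and the cell calling settings are not given in the sources used here. Analysis used Python 3.11.15, numpy 2.4.6, scipy 1.17.1, pandas 2.3.3, scikit-learn 1.9.0, matplotlib 3.10.9 and scanpy 1.11.5. For clustering, which left out ribosomal protein genes, each kept cell was scaled to 10000 counts and logged (2000 variable genes, 30 principal components, 15 neighbours, Leiden resolution 1, leidenalg 0.10.2, igraph 0.11.9). A cluster was named when at least 3 markers of a class were among its 50 leading genes by fold (genes in at least 10% of its cells, pseudocount 50 CPM) and no other class had more among the 10 leading genes.

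UMIs were summed per class and library. Shares have Clopper-Pearson intervals, CPM exact Poisson intervals and ratios conditional binomial intervals; the ratio of large over small subunit UMIs has a normal interval on the log scale. Log2 ratios used CPM plus 10. For make-up across classes 0.001% was added before the log. The sums ran from 173963 UMIs (NK cells, db/db) to 7008188 (erythroid cells, db/db). Scripts were tested on simulated counts. Coding lengths and coordinates came from GENCODE M21 (GRCm38), and start sites from RefSeq. Members named were drawn from the 10 with the most UMIs, the 3 highest and 3 lowest ratios and percentages in each class, the stalk genes, Rpsa, the paralogues and those at 0, and from other lists the 2 highest and 2 lowest in B cells; sites printed and genes traced through alternatives were chosen after values were seen. The members, lists and thresholds were chosen with earlier results of these data known. Some items are not reported here.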

Additional observations from a re-analysis of the deposited data

Results flagged for a closer look

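The ratio of the ribosomal protein share of UMIs, db/db over wild-type, pointed in opposite directions in different classes of cells. It was above 1 in NK cells (1.47), erythroid cells (1.496) and B cells (1.203) and below 1 in neutrophils (0.726) and platelets (0.503). With 1 library per genotype the difference between classes was not tested. Erythroid cells without core markers of another class gave 0.993, and platelets scaled by TMM gave 1.21, so these classes did not keep their side of 1.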

How the results depend on the processing

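With 1 library per genotype no replicate could be left out. No paired analysis was possible because each genotype had 1 library. The ratio of ribosomal protein shares stayed above 1 in B cells, NK cells and monocytes and below 1 in neutrophils under all alternatives run, and crossed 1 in T cells, erythroid cells and platelets. With at least 500 genes per barcode it was 0.987 in T cells, 1.28 in B cells, 1.22 in erythroid cells and 1.48 in platelets. That minimum dropped most barcodes of the platelet clusters, so its platelet value does not describe the same cells. With an mt- limit of 5% it was 1.00 in T cells, 1.11 in B cells, 1.45 in NK cells, 1.03 in monocytes and 0.914 in erythroid cells. With an mt- limit of 20% it was 0.96 in T cells, 1.19 in B cells, 1.11 in monocytes, 0.696 in neutrophils, 1.44 in erythroid cells and 0.558 in platelets. With ribosomal protein genes in the clustering it was 0.963 in T cells, 1.25 in B cells and 1.33 in erythroid cells. With classes taken from each cell's core markers it was 1.05 in T cells, 1.18 in B cells, 1.32 in NK cells, 1.07 in monocytes, 0.869 in neutrophils, 1.15 in erythroid cells and 1.00 in platelets. Without cells that carried core markers of another class it was 0.961 in T cells, 1.43 in NK cells, 1.09 in monocytes, 0.856 in neutrophils, 0.993 in erythroid cells and 0.703 in platelets. With every cell weighted the same it was 0.954 in T cells, 1.27 in B cells, 1.41 in NK cells, 1.1 in monocytes, 0.854 in neutrophils, 1.53 in erythroid cells and 0.66 in platelets. With haemoglobin and mt- UMIs left out of the total it was 1.02 in T cells, 1.19 in B cells, 1.34 in NK cells, 1.08 in monocytes, 0.822 in neutrophils, 1.45 in erythroid cells and 0.829 in platelets. With TMM scaling it was 1.00 in T cells, 1.24 in B cells, 1.35 in NK cells, 1.13 in monocytes, 0.905 in neutrophils, 1.56 in erythroid cells and 1.21 in platelets. With the same mix of clusters in both libraries, an alternative chosen after seeing the data, it was 0.941 in T cells, 1.08 in B cells, 1.01 in monocytes, 1.04 in erythroid cells and 0.704 in platelets. Where the cause of a change is not given by the alternative itself, it was not tested. Counts of higher and lower members moved by more than 1.5 times as follows. The shares of all genes past the fold are not given for these alternatives, so the counts cannot be read against a background. With an mt- limit of 5% they were 1 and 11 in T cells, 23 and 3 in B cells and 5 and 29 in erythroid cells. With classes taken from each cell's core markers they were 11 and 11 in T cells, 18 and 7 in monocytes, 3 and 29 in neutrophils, 32 and 2 in erythroid cells and 8 and 10 in platelets. Without cells that carried core markers of another class they were 22 and 5 in monocytes, 0 and 18 in neutrophils, 11 and 16 in erythroid cells and 2 and 12 in platelets. With haemoglobin and mt- UMIs left out of the total they were 4 and 11 in T cells, 16 and 8 in monocytes, 1 and 33 in neutrophils and 2 and 34 in platelets. With TMM scaling they were 1 and 11 in T cells, 53 and 1 in B cells, 29 and 2 in monocytes, 1 and 22 in neutrophils and 30 and 3 in platelets. With a fold of 1.5 they were 0 and 0 in T cells, 0 and 0 in B cells, 37 and 0 in NK cells, 0 and 0 in monocytes and 0 and 22 in neutrophils. A lower minimum of UMIs (50, or 1) moved no count by more than 1.5 times. A pseudocount of 1 CPM moved the median member ratio of platelets to -1.04. The fall of Rps18 in share of member UMIs held in every class under the alternatives run, with 1 exception. In neutrophils without cells that carried core markers of another class the change was 0.29 on the log2 scale. Rps18 fell below the minimum of UMIs for counting a gene there, so that sign is uncertain. The changes of Rps27, Rps28, Rpl38 and Rplp0 kept their sign in every class. Platelets (9859 and 22754) and neutrophils (18043 and 25295) had the fewest member UMIs in wild-type and db/db, which limits the precision of single members there.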

Other observations

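Several clusters entered no class comparison. Cluster 10, led by platelet and B cell genes, gave a ribosomal protein share of 18.3% in 83 wild-type cells and 24.6% in 399 db/db cells; its core platelet genes (Pf4, Ppbp, Gp9 and Itga2b) summed to 1885 and 1445 CPM. Cluster 18, led by interferon-induced genes, gave 26.7% in 53 wild-type and 26.3% in 32 db/db cells. A kidney proximal tubule-like cluster held 99 db/db and 3 wild-type cells, and its db/db cells gave 12.7%. A basophil-like cluster of 6 and 9 cells gave 9.47% and 14.3%. The barcodes removed for mt- UMIs gave 7.005% in wild-type and 5.45% in db/db.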
